A study of Mus musculus with 61 samples.

Results

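The step from the first hours of T-cell activation to 4 and 8 h was followed on 7 control arrays, chosen by title from the 61 arrays of the series. They were the control (ctrl) HT_MG-430A arrays at 0.5, 1 and 2 h, with a second one at 2 h, as the first-hour group (n = 4), and those at 4 and 8 h, with a second one at 8 h, as the later group (n = 3). The second arrays carry a suffix d in their titles, which the labels do not explain, and the times are bare numbers that were read as hours. Naive CD4 T cells of C57BL/6 mice were stimulated in culture with anti-CD3 and another antibody that the protocol writes as anti-CD8. The protocol attached to every sample, control arrays included, also lists IL-27 and calls the cells Tr1 cells, a regulatory T-cell type; arm and time were therefore taken from the titles. None of the 7 titles stands for unstimulated cells, so early stimulated cells are the baseline. The 7 HT_MG-430A arrays of the IL27 arm at the same times were used for comparison. By its title, the series as a whole asks how IL-27 shapes the transcription of such cells. The labels do not say whether each array had its own culture or mouse. P-values therefore measure the spread among the 7 arrays, which may be technical, and here that spread also holds the change between times within a group.

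Binding of the T-cell receptor starts calcium, MAP kinase and NF-kB signalling, and the first genes to respond are immediate early genes, whose promoters are ready before the signal and need no new protein. Their products, among them the AP-1 factors Fos and Jun, the Egr and the Nr4a factors, together with NFAT proteins, switch on cytokine and receptor genes. The cell then leaves quiescence: factors such as Foxo1 and Klf2, which keep a naive cell small and circulating, are lost, and ribosomes, nucleotides and amino acids are made in preparation for division.

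In what follows, the values of a gene are intensities on a linear scale, in the order 0.5, 1, 2 and 2 d h for the first hours and 4, 8 and 8 d h for the later group, with d for the suffix. A difference is the later group's mean minus the first-hour mean of log2(intensity + 32), given with its standard error; the added 32 understates changes of dim genes. A gene was called higher or lower where limma gave a Benjamini-Hochberg adjusted p under 0.05.

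The arrays were alike in overall brightness, with medians of 30.84 to 32.42. Of 8 defining T-cell markers 7 were measured, and each lay above the array's median on all 7 arrays. Their summed intensity was 14307 to 17982 in the first hours and 9543 to 12826 later, and 5 of the 7 fell. Markers of other cells were dimmer: summed intensities in the first hours and later were 1370 to 3529 and 827 to 1333 for 9 B-cell markers, and 599 to 2119 and 491 to 955 for 5 MHC class II genes. They were 296 to 533 and 234 to 295 for 13 myeloid and dendritic markers, 125 to 274 and 71.8 to 104 for 6 NK-cell markers and 121 to 143 and 117 to 133 for both CD8 T-cell markers. Of these, 4 of the B-cell, 1 of the MHC class II, 6 of the myeloid, 5 of the NK-cell and 1 of the CD8 markers (Cd8a) lay above the median on no array. Regulatory T-cell markers (7) summed to 701 to 971 and then 904 to 1237, with Foxp3 above the median on no array. Of these 1 was called higher, Il2ra (means 46.8 and then 705), and 2 lower, Ctla4 (253 and then 52.0) and Izumo1r (382 and then 186). Erythroid and platelet markers (5) summed to 107 to 120 and then 134 to 210. The summed levels of B-cell, myeloid and NK-cell markers were lower on each later array than on any first-hour array. Most of the B-cell sum was Ighm, the only B-cell marker called lower (means 2098 and then 808), while Fcer2a was called higher (24.5 and then 73.0). Among NK-cell markers only Klrd1 was called lower (means 104 and then 22.8). The part of these markers in the falls described here was not tested. In such RNA from whole cultures, fewer cells of a type and less RNA per cell cannot be told apart.

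Promoter sequences are shown first for the 3 cytokine and chemokine genes that rose most and the 3 immediate early genes that fell most, since these groups moved in opposite directions. They were picked after their values were seen. Each stretch holds the 150 bases before the gene's start, 5′ to 3′ on the gene's strand, from RefSeq on GRCm38.p6. Capitals mark 3 motifs, each searched on both strands. One is TATAAA, the TATA box that places the start of transcription. Another is GGAAA, the core that NFAT and related factors bind. The last is GGGCGG, a GC box. Matches to the second and the third could share bases, but none do here.
Il2 (chr3:37125955-37126104, minus strand): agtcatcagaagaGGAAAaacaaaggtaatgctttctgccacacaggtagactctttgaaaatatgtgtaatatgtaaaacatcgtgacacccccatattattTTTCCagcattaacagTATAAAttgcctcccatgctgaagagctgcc
Il3 (chr11:54267280-54267429, minus strand): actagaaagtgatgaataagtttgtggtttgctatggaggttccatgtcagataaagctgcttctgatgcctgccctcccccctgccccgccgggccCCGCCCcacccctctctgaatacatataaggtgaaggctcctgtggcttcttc
Xcl1 (chr1:164935523-164935672, minus strand): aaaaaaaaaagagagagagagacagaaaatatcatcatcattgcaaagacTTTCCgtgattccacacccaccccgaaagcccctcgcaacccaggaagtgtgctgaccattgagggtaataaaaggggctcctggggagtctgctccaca
Fosb (chr7:19310046-19310195, minus strand): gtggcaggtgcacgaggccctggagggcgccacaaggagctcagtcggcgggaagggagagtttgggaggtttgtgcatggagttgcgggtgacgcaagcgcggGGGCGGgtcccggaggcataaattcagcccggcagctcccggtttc
Klf4 (chr4:55532476-55532625, minus strand): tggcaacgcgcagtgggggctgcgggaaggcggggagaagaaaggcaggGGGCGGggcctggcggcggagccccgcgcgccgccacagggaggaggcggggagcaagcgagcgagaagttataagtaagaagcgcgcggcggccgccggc
Fos (chr12:85473740-85473889, plus strand): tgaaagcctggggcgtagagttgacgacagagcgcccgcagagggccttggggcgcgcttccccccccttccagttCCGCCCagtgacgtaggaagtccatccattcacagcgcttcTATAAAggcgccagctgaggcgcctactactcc

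The stretches of Il2, Il3 and Xcl1 held 38.7%, 54.0% and 48.0% G and C, those of Fosb, Klf4 and Fos 66.7%, 74.0% and 62.7%. Over the 250 bases before the start, GGAAA was found in 13 of 16 helper cytokine and chemokine promoters (81.2%) and in 12 of 31 immediate early ones (38.7%), against 55.1% of the 5481 tested genes with a promoter in the table and 55.6% of all 27025 promoters. GGGCGG ran the other way, in 5 of 16 (31.2%) and 25 of 31 (80.6%), against 63.1% and 32.9%. TATAAA was found in 31.2% and 19.4%, against 5.75% of tested genes and 13.0% of all promoters. The median G and C share of these windows was 52.8% for cytokine and chemokine promoters and 64.4% for immediate early ones. It was 60.4% for tested genes and 52.0% for all promoters. The part of base composition in the motif counts was not tested. A match describes letters in the window and nothing about binding. Among genes called higher and lower as a whole, the shares lay closer together, at 56% and 53.6% for GGAAA and 60.2% and 68.2% for GGGCGG.

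Much of the transcriptome moved between the windows. Of 6634 genes tested, 2659 (40.1%) were called, 1321 higher (19.9%) and 1338 lower (20.2%), and the median difference over all genes was -0.02. A difference of 2-fold or more was reached by 700 of the genes called higher and 692 of those called lower. All 3 later arrays lay above all 4 first-hour arrays for 1488 genes (22.4%) and below them for 1505 (22.7%). Among called genes the groups were apart for 1232 of the higher (93.3%) and 1235 of the lower (92.3%). Genes were called on these same arrays, which largely set both the separation of the groups and the window in which the peak lay. Most genes called higher had their highest level at 8 h (1061 of 1321) and the rest at 4 h. Those called lower were highest at 0.5 h (550), 1 h (523) or 2 h (264), with 1 exception that was highest at 4 h, and 1109 of 1338 were lowest at 8 h. Without the 8 h array 1490 genes were called, without the 8 d h array 1617, and the count of genes called lower was 879 without the 1 h array.

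**Figure D1:**
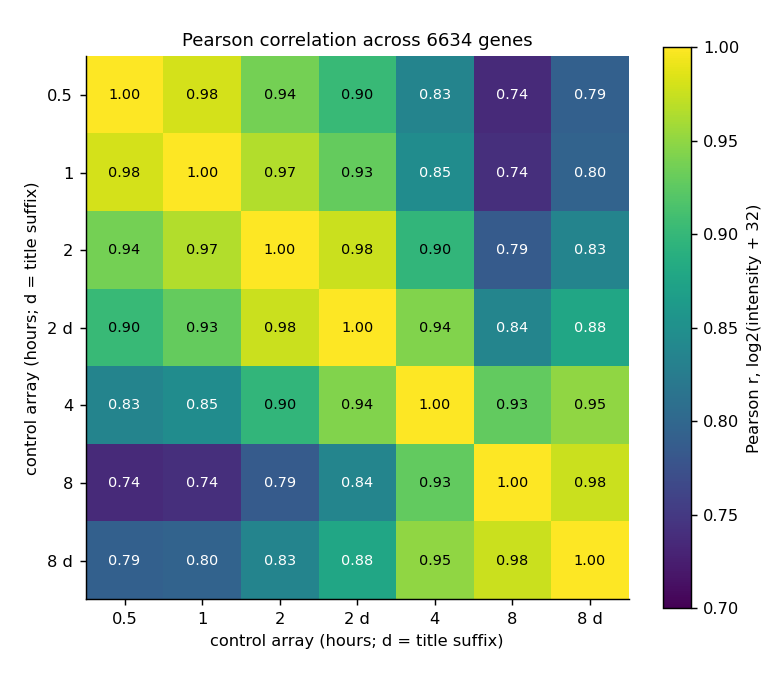
Pearson correlation between the 7 control arrays across the 6634 tested genes, on the log2(intensity + 32) scale, with arrays in order of time on both axes and d for the title suffix. Correlation falls with the distance in time, from 0.98 between 0.5 and 1 h to 0.74 between 0.5 and 8 h, and the 2 d h array lies nearer to 4 h (0.94) than the 2 h array does (0.90).

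The order of the arrays followed their labelled times, given here as a description across genes. The arrays at 0.5 and 1 h correlated at 0.9808 and differed 2-fold or more in 61 genes, while those at 0.5 and 8 h correlated at 0.7363 and differed so in 2285. The arrays of one time were not interchangeable. At 2 h the array with the suffix was further towards the later levels than the one without: 975 of the 1321 genes called higher were above it and 1146 of the 1338 called lower were below it. At 8 h the array with the suffix was the less advanced, with 261 of the 1321 higher and 426 of the 1338 lower genes beyond the level of the other. The comparison used all these arrays in choosing the called genes. With the suffix as a block 2404 genes were called, and without its arrays 1916.

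Many immediate early and first-wave genes fell. Of 39 tested, 17 were called lower (43.6% against 20.2% of all genes), 3 higher and the rest neither, with a median difference of -0.92 against -0.02 over all genes. Fosb, an AP-1 subunit, stood at 1262, 667, 115 and 133 in the first hours and at 26.6, 13.5 and 12.1 later (-2.97 ± 0.68, adjusted p = 0.0081). It was highest at 0.5 h and lay below the array medians at every later array. Fos, of the same family, stood at 3032, 2095, 1238 and 1671 and then at 967, 224 and 254 (-2.21 ± 0.47, adjusted p = 0.0058), so that the 4 h array lay close below the lowest first-hour array and both 8 h arrays far below. Zfp36, which marks AU-rich transcripts for decay, held between 1768 and 2215 through 2 h and then dropped to 1172, 331 and 375 (-1.83 ± 0.37). Btg2, an anti-proliferative gene, was highest at 2 h with 3258 and 2593 after 2089 and 2291, and fell to 1435, 536 and 747 (-1.56 ± 0.30). The zinc-finger factor Klf10 (-1.76 ± 0.33) and Ier2 (-0.89 ± 0.20) fell as well. Without the 8 h array, and equally without the 8 d h array, 9 members of the list were called lower, and without both arrays of suffix d 11.

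Jun and Junb, further AP-1 subunits, followed the course of Fosb in part. Jun stood at 3898, 1018, 361 and 328 and then at 385, 111 and 146; the 4 h array lay within the range of the first hours and the gene was not called (-1.99 ± 0.76, adjusted p = 0.0601). It was called without the 2 d h array (-2.42, adjusted p = 0.0264), without the 2 h array (-2.38, 0.0443) and without the 4 h array (-2.46, 0.0471). Junb stood at 3840, 3091, 1158 and 1466 and then at 1153, 429 and 433 (-1.77 ± 0.46, adjusted p = 0.0147). Its call was lost without the 8 h array (-1.54, adjusted p = 0.0685) and without the 8 d h array (-1.54, 0.0679). One of the 3 exceptions was Fosl1, the AP-1 subunit Fra-1, which rose from 12.5, 15.7, 20.5 and 49.6 to 93.4, 316 and 302 (2.15 ± 0.36, adjusted p = 0.00244), with no overlap.

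**Figure D2:**
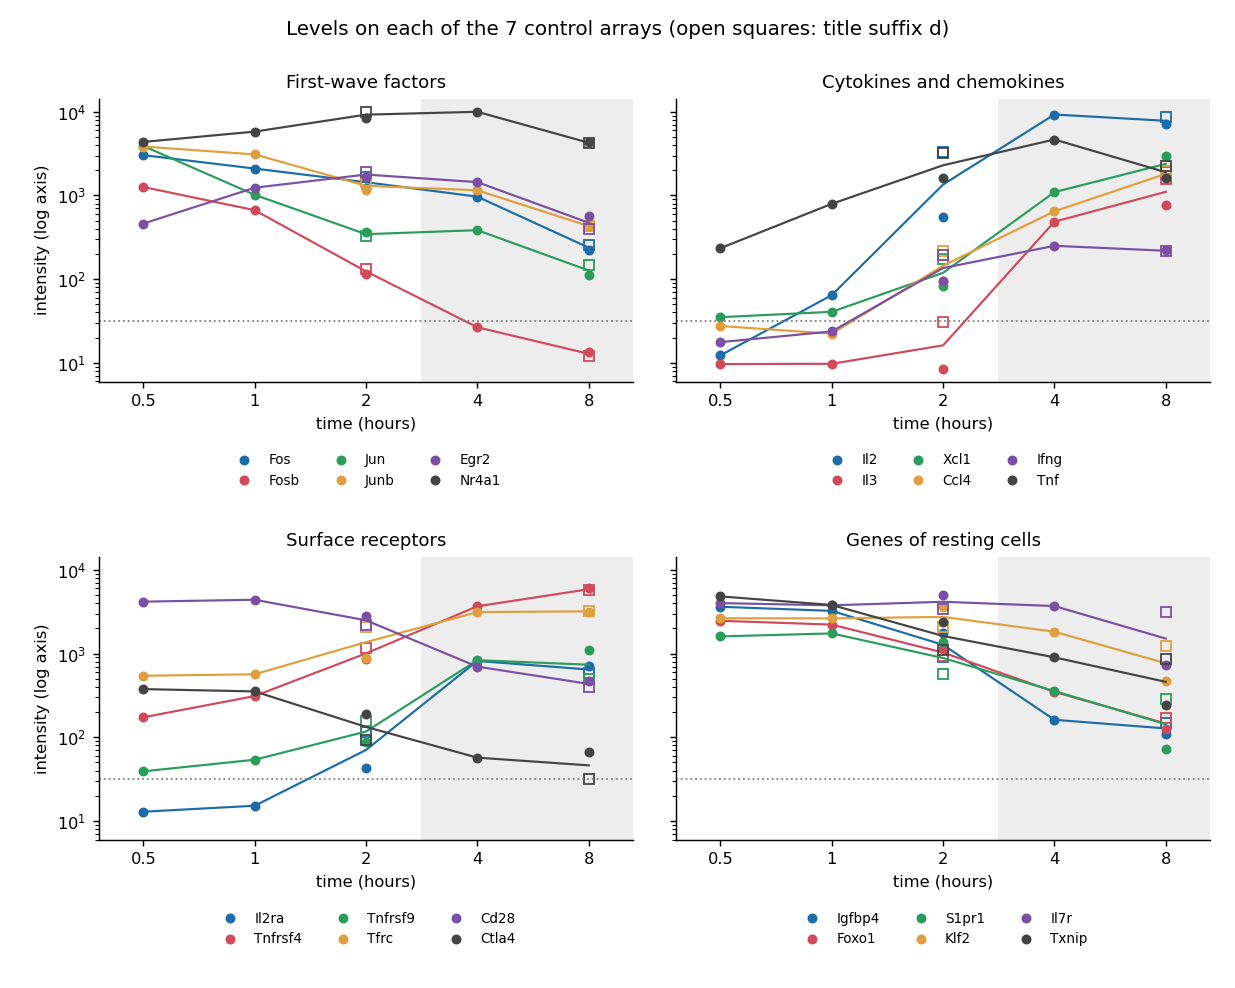
Intensity on a log axis against time in hours for 6 genes of each of 4 kinds on the 7 control arrays; filled circles are arrays without and open squares arrays with the title suffix d, lines join the geometric means per time, the dotted line is the median of the array medians, and shading marks the later group. Fosb falls from 1262 to 12.1 while Il2 rises from 12.3 to 9269, and Egr2, Nr4a1 and Tnf are highest at 2 or 4 h.

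Another set of inducible genes peaked between the ends of the series and so showed little net difference. Nr4a1, an orphan nuclear receptor whose level tracks receptor signalling, stood at 4359, 5791, 8506 and 10028 and then at 9987, 4324 and 4212. The 2 d h and 4 h arrays were highest, both 8 h arrays lay below the 0.5 h array, and the groups overlapped (-0.26 ± 0.35, adjusted p = 0.569). Egr2, which drives feedback on receptor signalling, stood at 461, 1237, 1659 and 1904 and then at 1443, 562 and 397 (-0.73 ± 0.52, adjusted p = 0.288). Nr4a3 went from 29.9 through 90.9, 241 and 476 to 275 at 4 h and back to 24.4 and 47.6 at 8 h (-0.70 ± 0.74, adjusted p = 0.478). Only the falling side of these arcs was tested, with 8 h against 2 h alone and 2 arrays each. Nr4a1 then differed by -1.11 (limma adjusted p = 4.62e-06), Egr2 by -1.84 (1.39e-05), Nr4a3 by -2.47 (8.94e-06) and Egr3 by -1.19 (0.00101). The spread in that test came from the 2 arrays of each time and may be technical. In all, 126 of 6634 genes were 2-fold or more higher at 2 or 4 h than at both 0.5 and 8 h, by a rule set after the data were seen and given with no test, and 28 of them were called in the main comparison. Besides the genes above they included Nr4a2, Crem, Bcl6, Socs1, Tbx21, Cxcl10, Cd40lg, Tnf and the host transcript Mir155hg.

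Myc, the main driver of cell growth after activation, also turned over after 4 h. It stood at 467, 652, 2473 and 5432 in the first hours and at 6180, 4380 and 3966 later. The 2 d h array lay above both 8 h arrays, so the groups overlapped, and the difference of 1.70 ± 0.71 was not called (adjusted p = 0.0796). It was called without the 2 d h array (2.33, adjusted p = 0.00636). Irf4, a factor whose level follows the strength of receptor signalling, stood at 807, 891, 1966 and 4435 and then at 6268, 4118 and 3565, again with overlap. Its difference of 1.49 ± 0.51 was just past the threshold (adjusted p = 0.0428) and was not called without any 1 of 6 of the 7 arrays: the values were 1.17 without 0.5 h (adjusted p = 0.0837), 1.22 without 1 h (0.103), 1.59 without 2 h (0.0619), 1.25 without 4 h (0.120), 1.55 without 8 h (0.101) and 1.66 without 8 d h (0.0804).

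Cytokine and chemokine genes supplied several of the largest rises. Of 17 helper cytokine genes with a probe set 11 were bright enough to test, and of 9 chemokine genes 7. Among those tested, 6 helper cytokine genes were called higher (54.5% against 19.9% of all genes) and 6 chemokine genes (85.7%), with none lower. The medians were 1.31 and 1.81. A gene below the array medians on all first-hour arrays was tested only if all later arrays lay above them. Among such dim genes the filter favours rises. Il2, the growth factor of activated T cells, stood at 12.3, 64.4, 556 and 3286 in the first hours and at 9269, 7059 and 8619 later (4.78 ± 1.19, adjusted p = 0.0120). It rose at each successive time to 4 h, and the first-hour arrays were spread widely, with the 0.5 h array below the array median. Il3, which stimulates blood progenitors and mast cells, came later: it stood at 9.66, 9.73, 8.49 and 30.8 and then at 486, 771 and 1584 (4.25 ± 0.35, adjusted p = 0.000523). All 4 first-hour values lay below the array medians and all later ones far above. The lymphotoxin gene Lta went from 115, 146, 423 and 1149 to 2275, 2001 and 1974 (2.62 ± 0.61). Csf2, which encodes GM-CSF, stayed dim at 14.2, 13.1, 20.2 and 19.8 and then 54.0, 58.8 and 112 (1.10 ± 0.19).

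Ifng and Tnf, the effector cytokines of inflammatory helper cells, were less settled. Ifng stood at 17.7, 23.7, 94.5 and 195 and then at 250, 221 and 215 (1.46 ± 0.47, adjusted p = 0.0320), with a narrow gap between the groups. Its call was lost without the 0.5 h (1.15, adjusted p = 0.0618), 1 h (1.21, 0.0827), 4 h (1.41, 0.0728), 8 h (1.48, 0.0886) or 8 d h array (1.5, 0.0847). Tnf stood at 234, 794, 1638 and 3211 and then at 4661, 1616 and 2222, with overlapping groups and a peak at 4 h (1.31 ± 0.72, adjusted p = 0.172; without the 2 d h array 1.86, 0.0365). The number of helper cytokine genes called was 2 without the 4 h array, 3 without the 8 h array and 2 without the 8 d h array.

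Among the chemokines, Xcl1 (lymphotactin), which attracts cross-presenting dendritic cells, stood at 35.1, 40.7, 81.8 and 173 and then at 1096, 2955 and 1923 (4.18 ± 0.43, adjusted p = 0.000775). Ccl4, an inflammatory chemokine, stood at 27.5, 22.3, 96.2 and 218 and then at 647, 1684 and 1948 (3.71 ± 0.55, adjusted p = 0.00158). Its neighbour in function Ccl3 stood at 13.1, 16.5, 30.9 and 46.6 and then at 168, 410 and 423 (2.58 ± 0.32). All had their groups apart and were higher at 8 than at 4 h. Ccl1, a ligand of CCR8, rose by 1.81 ± 0.24. Of the 6 chemokine genes called, 3 were called without the arrays of suffix d.

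At the cell surface, growth-factor and TNF-family receptors rose and several receptors of resting cells fell. Il2ra, the alpha chain that gives the IL-2 receptor its high affinity, stood at 12.9, 15.2, 42.9 and 116 and then at 818, 705 and 592 (3.39 ± 0.38, adjusted p = 0.000775). The first-hour arrays at 0.5 and 1 h lay below the array medians and the groups were far apart. Tnfrsf4 (OX40) stood at 173, 311, 859 and 1177 and then at 3678, 6013 and 5748 (3.27 ± 0.54), and Tnfrsf9 (4-1BB) at 39.2, 54.0, 87.2 and 157 and then at 835, 1092 and 498 (2.89 ± 0.37). Both are co-stimulatory receptors of activated cells, and both climbed at each time to 4 h. Of 13 TNF-family ligands and receptors 6 were higher (46.2% against 19.9% of all genes) and none lower. The higher ones included the CD30 ligand Tnfsf8 (2.17 ± 0.20) and Tnfrsf18, or GITR (1.72 ± 0.25). The 2 dimmer probe sets of Tnfrsf9 moved less, down to 0.09. Cd40lg, which licenses B cells and dendritic cells, peaked at 2 and 4 h (20.1, 22.3, 42.8 and 144, then 200, 51.5 and 59.6) and was not called (0.63 ± 0.46, adjusted p = 0.304; without the 2 d h array 1.02, 0.0441).

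The transferrin receptor Tfrc, which brings iron into growing cells, stood at 544, 566, 894 and 2103 and then at 3135, 3142 and 3257 (1.82 ± 0.40, adjusted p = 0.00674). Most of its rise fell between 1 and 4 h, and the later arrays were nearly equal. The inhibitory ligand Cd200 stood at 43.2, 26.2, 75.1 and 136 and then at 610, 1621 and 1442 (3.62 ± 0.42), with the groups apart. Cd28 and Ctla4, the activating and inhibitory receptors for CD80 and CD86, both fell. Cd28 stood at 4178, 4403, 2825 and 2214 and then at 699, 474 and 398 (-2.61 ± 0.28, adjusted p = 0.000775). Ctla4 stood at 377, 353, 189 and 93.7 and then at 57.1, 67.0 and 31.9 (-1.64 ± 0.39, adjusted p = 0.00956), and missed the threshold without the 8 d h array (-1.45, 0.0505). Both had all later arrays below all earlier ones. Of 17 cytokine receptor genes 7 were lower and 3 higher (41.2% and 17.6% against 20.2% and 19.9% of all genes). The lower ones included the TGF-beta receptor Tgfbr2 (-1.91 ± 0.26) and the IL-6 receptor Il6ra (-1.69 ± 0.30), although another probe set of Tgfbr2 stood at -0.01. The count of lower ones was 4 without the 8 h array and without the 8 d h array.

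Of 17 genes of the T-cell receptor complex and its proximal signalling 9 were called lower (52.9% against 20.2% of all genes) and 1 higher (median -0.90), and without the 8 h array, the 8 d h array or both arrays of suffix d, 5 were lower. Cd3d, a chain of the CD3 complex, stood at 5489, 5123, 5416 and 4624 and then at 2304, 2482 and 2580 (-1.06 ± 0.12, adjusted p = 0.000775). It was flat through 2 h, dropped by 4 h and was flat again, with a wide gap. The adaptor Grap2 peaked at 2 h (106, 144, 336 and 184) and then fell to 49.8, 32 and 26.8 (-1.63 ± 0.31). T-cell markers and these genes overlap, and the summed marker level above moved with them.

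Regulators of the signal moved in both directions. Spry1, an inhibitor of the Ras-ERK pathway, stood at 35.6, 36.3, 184 and 515 and then at 1900, 1815 and 1871 (3.63 ± 0.64, adjusted p = 0.00294). Dusp10, a phosphatase of JNK and p38, went the other way from 3632, 4439, 1024 and 574 to 347, 114 and 133 (-3.11 ± 0.67, adjusted p = 0.00625); its second probe set fell by 1.07. Rasgrp2, a Rap1 activator of naive cells, stood at 1623, 1240, 728 and 528 and then at 162, 33.2 and 101 (-3.03 ± 0.44). Rgs2, which shortens G-protein signalling (-3.04 ± 0.54), and Tob1, an anti-proliferative gene of resting T cells (-2.45 ± 0.47), fell. In each of these 5 genes the groups did not overlap. Of 14 NF-kB pathway genes tested none was called higher and 1 lower (0% and 7.14% against 19.9% and 20.2% of all genes). Each count reached up to 2 as single arrays were left out and up to 7 under other settings. Nfkbia, the inhibitor IkB-alpha, was steady at 7180 to 7938 in the first hours and 5811 to 7579 later (-0.16 ± 0.11, adjusted p = 0.277). Its 4 probe sets ran from -0.55 to 0.19. Dusp1 (-0.93 ± 0.37, adjusted p = 0.0712) and Tnfaip3 (-1.11 ± 0.48, 0.0905) were not called, but were without the 4 h array (-1.29, 0.0201, and -1.51, 0.0414), as was Tnfaip3 without the 2 d h array (-1.35, 0.0488).

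Genes that mark naive, quiescent T cells formed the list with the lowest median. Of 30 tested, 23 were called lower and 2 higher (76.7% and 6.67% against 20.2% and 19.9% of all genes), at a median of -1.60. Igfbp4, a growth-factor binding protein of naive CD4 cells, had the largest fall of any called gene whose groups were apart: it stood at 3630, 3240, 1785 and 910 and then at 162, 110 and 148 (-3.64 ± 0.42, adjusted p = 0.000801). Its level fell at each step through 4 h, and its 6 probe sets ran from -3.69 to -1.32. Foxo1, the factor that keeps Klf2 and Il7r expressed, stood at 2468, 2223, 1125 and 942 and then at 349, 125 and 170 (-2.79 ± 0.40, adjusted p = 0.00146), although a dimmer probe set did not move (0.03). Cdkn1b (p27), which holds cells out of the cycle, stood at 1534, 1349, 1169 and 639 and then at 376, 120 and 165 (-2.32 ± 0.38). For these 3 genes every later array lay below every first-hour array. The retinoblastoma-family gene Rbl2 fell by 2.04 ± 0.28.

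Other genes of the list differed between the arrays at 8 h. Klf2, which sets the homing program of naive cells, stood at 2644, 2637, 3588 and 2101 and then at 1827, 471 and 1249 (-1.36 ± 0.39, adjusted p = 0.0203; without the 2 h array -1.22, 0.0536). Txnip, an inhibitor of glucose uptake, stood at 4826, 3814, 2408 and 1096 and then at 902, 247 and 858 (-2.12 ± 0.54, adjusted p = 0.0130; without the 8 h array -1.55, 0.0549). In both the 8 h array lay well below the 8 d h array. The gap was widest in Il7r, the receptor for the survival cytokine IL-7: it stood at 4015, 3776, 5022 and 3455 and then at 3699, 728 and 3143, so that the 4 h array lay within the range of the first hours, the 8 d h array just below it and the 8 h array far below. Il7r was not called (-0.96 ± 0.46, adjusted p = 0.121), but was without the 4 h array (-1.39, 0.0417). The 2 array types differed at 4 h for Il7r. On the control arrays of a second type, described below, it stood at 10931 at 0 h and already at 435 at 4 h. Bach2, a repressor that preserves quiescence, showed no trend at 1832, 1780, 1130 and 1684 and then 2535, 1258 and 1417 (0.07 ± 0.27, adjusted p = 0.859).

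Several homing receptors fell. Of 18 trafficking and adhesion genes 7 were lower (38.9% against 20.2% of all genes) and 2 higher. Cxcr4, the receptor for CXCL12, stood at 2043, 1228, 841 and 496 and then at 187, 35.7 and 49.5 (-3.30 ± 0.51, adjusted p = 0.00177), falling at each time. S1pr1, which lets T cells leave lymph nodes, stood at 1605, 1744, 1383 and 568 and then at 357, 72.1 and 286 (-2.42 ± 0.50). Ccr7, which brings naive cells into nodes, stood at 4777, 5531, 4339 and 2701 and then at 958, 2198 and 1388 (-1.53 ± 0.30), and was lowest at 4 h. The P-selectin ligand Selplg fell by 1.68 ± 0.32. In all 4 the groups were apart.

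Genes for making ribosomes rose nearly without exception. Of 54 ribosome biogenesis genes tested 49 were called higher and none lower (90.7% against 19.9% of all genes), at a median of 1.29. Polr1b, a subunit of RNA polymerase I, stood at 67.9, 59.5, 63.2 and 149 and then at 435, 492 and 450 (2.13 ± 0.26, adjusted p = 0.000928). Utp20, a part of the small-subunit processome, stood at 355, 365, 269 and 365 and then at 1226, 1752 and 1762 (2.11 ± 0.21). Mybbp1a, a nucleolar protein of rRNA synthesis, stood at 1228, 1228, 1254 and 1879 and then at 3870, 3912 and 4323 (1.53 ± 0.18). The first 3 arrays were flat in Polr1b and Mybbp1a and the rise began in the 2 d h array, with no overlap in any of these genes. The nucleolar proteins Ncl (0.90 ± 0.14) and Nop56 (0.81 ± 0.16) rose less. The count ran from 37 to 49 as single arrays were left out.

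The transcripts of the ribosomal proteins themselves did not follow. Of 30 cytosolic ribosomal protein genes 1 was called, Rps25, as higher (3.33% against 19.9% of all genes). Rps25 stood at 638, 741, 932 and 1199 and then at 1269, 1802 and 1819, and the list's median was -0.07. Rps25 was not called without the 1 h (0.82, adjusted p = 0.0502), 8 h (0.81, 0.0718) or 8 d h array (0.80, 0.0754). Mitochondrial ribosomal protein genes did rise, 36 of 53 (67.9% against 19.9% of all genes) with none lower (median 1.02). They included Mrps2 (1.77 ± 0.31), Mrpl19 (1.52 ± 0.27) and Mrpl15 (1.43 ± 0.24), although other probe sets of Mrpl19 and Mrpl15 went down to 0.00 and 0.05. Without the 8 h or the 8 d h array 16 were called, and without both arrays of suffix d, 19. Of 18 tRNA synthetases, which charge tRNAs with amino acids, 17 were higher (94.4% against 19.9% of all genes, median 1.15). Wars stood at 148, 115, 111 and 145 and then at 531, 570 and 831 (2.04 ± 0.22), and Kars at 535, 537, 516 and 723 and then at 1575, 2124 and 1915 (1.65 ± 0.19). Wars was flat through 2 h, Kars was flat on the first 3 arrays and higher on the 2 d h array, and neither had overlapping groups. Of 23 translation factors 14 rose (60.9% against 19.9% of all genes), among them Eif3b (1.14 ± 0.19) and Eif3c (0.97 ± 0.17). Without the 8 h array 6 translation factors rose, and without the 8 d h array 7.

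Genes of the Myc network moved in both directions. Cad, a target of Myc that starts pyrimidine synthesis, stood at 166, 150, 55.2 and 85.4 and then at 499, 1077 and 836 (2.53 ± 0.35, adjusted p = 0.00129), lowest at 2 h. Mxd4 and Mxi1, partners of Max that oppose Myc, fell. Mxd4 stood at 541, 870, 1068 and 613 and then at 103, 32.9 and 78.6 (-2.97 ± 0.32, adjusted p = 0.000775), and Mxi1 at 346, 909, 871 and 647 and then at 109, 70.1 and 122 (-2.39 ± 0.33). Both were highest at 1 or 2 h and had their groups apart, and other probe sets of each moved less, down to -0.06 for Mxd4 and -0.77 for Mxi1. Of the 14 tested genes of this list 6 were higher and 2 lower (42.9% and 14.3% against 19.9% and 20.2% of all genes). Without the 8 h array 3 were higher.

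**Figure D3:**
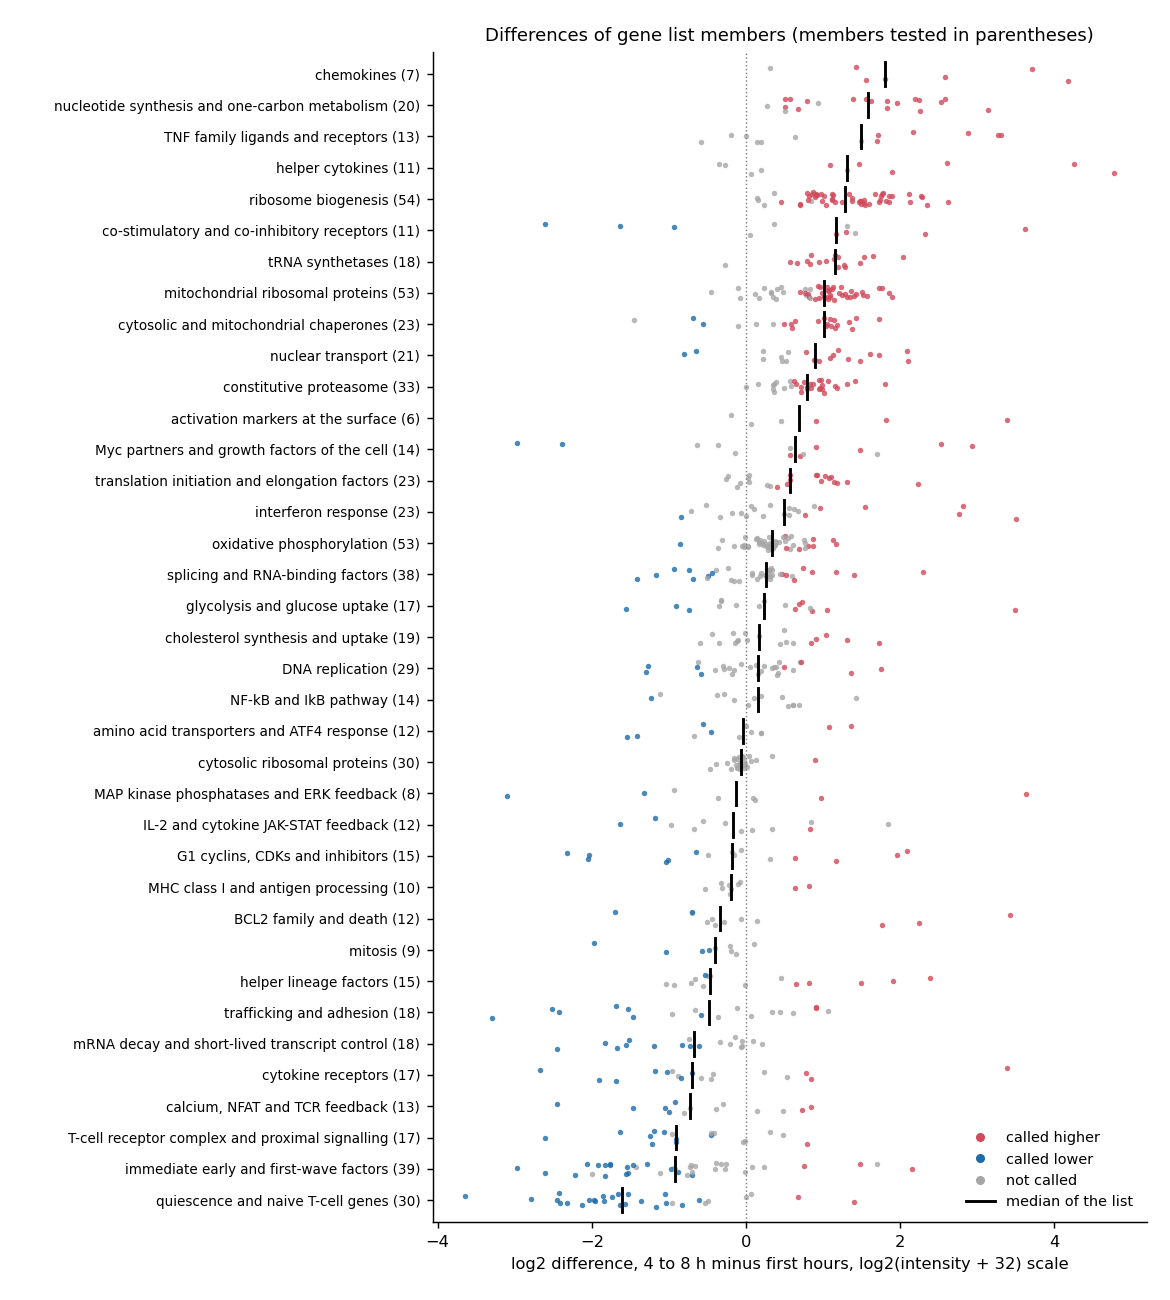
Log2 difference between the later and the first-hour arrays for each tested member of the gene lists, in order of the list medians (black bars), with genes called higher in red, called lower in blue and not called in grey. Ribosome biogenesis genes lie nearly all to the right (49 of 54 called higher), quiescence genes to the left (23 of 30 called lower), and cytosolic ribosomal protein genes at 0.

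Metabolic genes rose selectively. Of 20 genes of nucleotide synthesis and one-carbon metabolism 17 were higher and none lower (85% against 19.9%), with a median of 1.59. Shmt2, the mitochondrial enzyme that feeds one-carbon units, stood at 301, 270, 326 and 645 and then at 1719, 2760 and 2713 (2.59 ± 0.30, adjusted p = 0.000833). Psat1, of serine synthesis, stood at 153, 161, 200 and 258 and then at 741, 1220 and 1047 (2.20 ± 0.25), and Gart, of purine synthesis, at 415, 275, 318 and 385 and then at 1089, 1614 and 1653 (1.95 ± 0.23). In each the groups were apart and 8 h was higher than 4 h. Bcat1, which transaminates branched-chain amino acids, went from 8.67, 8.19, 11 and 34.2 to 475, 1492 and 1319 (4.45 ± 0.37, adjusted p = 0.000523), among the largest rises of all; its second probe set rose by 2.35.

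Glucose genes were mixed, with 6 of 17 higher and 3 lower (35.3% and 17.6% against 19.9% and 20.2% of all genes). Without the 1 h or the 8 h array 1 was lower. Hk2, the inducible hexokinase, stood at 35.8, 38.8, 34.2 and 85.0 and then at 452, 1068 and 1231 (3.49 ± 0.35, adjusted p = 0.000775). Pgk1 rose by 1.05 ± 0.18, while the glucose transporter Slc2a3 fell by 0.91 ± 0.19 (another probe set stood at 0.03) and Slc2a1 stood at 1126, 1142, 591 and 641 and then at 630, 692 and 663 (-0.33 ± 0.26, adjusted p = 0.352). Slc2a1 was high only at 0.5 and 1 h. Slc7a5, a chain of the large neutral amino acid transporter, rose from 360, 493, 544 and 928 to 1585, 1437 and 1390 (1.37 ± 0.28, adjusted p = 0.00504), but Slc38a2 (-1.41 ± 0.28) and the stress factor Ddit3 (-1.55 ± 0.24) fell. Of 19 cholesterol genes 5 were higher (26.3% against 19.9% of all genes). The count ran from 4 to 6 as single arrays were left out and from 1 to 8 under other settings. Idi1 stood at 179, 186, 200 and 181 and then at 578, 806 and 699 (1.72 ± 0.19), and Sqle rose by 1.31 ± 0.24. Of 53 oxidative phosphorylation genes 8 were higher and 1 lower (15.1% against 19.9% higher). That count was 29 without the 4 h array, 2 without the 8 h array, 5 without the 8 d h array, 4 without the 1 h array and 4 without both arrays of suffix d. Atp5g1, of ATP synthase, stood at 1150, 1119, 1220 and 1364, then 2021 at 4 h and 3627 and 2862 at 8 h (1.17 ± 0.20).

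Folding, degradation and transport genes rose too. Of 23 chaperones 17 were higher and 2 lower (73.9% and 8.7% against 19.9% and 20.2% of all genes). Hspd1, the mitochondrial chaperonin, stood at 1442, 1373, 1530 and 2318 and then at 4858, 6217 and 5400 (1.73 ± 0.19). The cytosolic chaperonin subunits Cct6a (1.18 ± 0.16) and Cct7 (1.09 ± 0.16) rose with it. Of 33 proteasome genes 23 were higher (69.7% against 19.9% of all genes) and none lower at a median of 0.80. Psmg1, an assembly factor, was at 1.80 ± 0.36 and the subunit Psmd1 at 1.32 ± 0.22. The proteasome count was 13 without the 1 h array, 8 without the 8 h array, 11 without the 8 d h array and 15 without both arrays of suffix d. Of 21 nuclear transport genes 13 rose and 2 fell (61.9% and 9.52% against 19.9% and 20.2% of all genes). Importin Ipo5 stood at 272, 275, 341 and 641 and then at 1555, 1695 and 1655 (2.09 ± 0.28), the Ran exchange factor Rcc1 rose by 2.10 ± 0.30 and the tRNA exporter Xpot by 1.73 ± 0.24; another probe set of Ipo5 rose by 0.20. Among 38 splicing factors 8 rose and 7 fell (21.1% and 18.4%), close to the 19.9% and 20.2% of all genes. Hnrnpll, which directs the splicing of Cd45 in activated T cells, went from 570, 557, 936 and 1063 to 3005, 4307 and 4289 (2.30 ± 0.26, adjusted p = 0.000775), while the kinase Clk1 fell from 6551, 6640, 5520 and 4615 to 2781, 1706 and 2058 (-1.42 ± 0.19). In both the groups were apart. The count of splicing genes called lower was 4 without the 1 h, 8 h or 8 d h array, and the count called higher 5 without the 8 h array.

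Among 15 cyclins, CDKs and inhibitors of G1, 4 rose and 6 fell (26.7% and 40% against 19.9% and 20.2% of all genes). Without the 1 h, 4 h, 8 h or 8 d h array 2 rose. Cdk4, which drives passage through G1, stood at 416, 313, 282 and 483 and then at 1061, 1911 and 1740 (1.97 ± 0.27, adjusted p = 0.00121). Its partner Ccnd2 stood at 3462, 2696, 3636 and 6408 and then at 9474, 8173 and 8362 (1.16 ± 0.24). Ccnd3, another cyclin D, fell from 740, 556, 450 and 394 to 262, 223 and 246 (-1.01 ± 0.24). In all of these genes the groups were apart. On the control arrays from 14 to 72 h Ccnd3 had a median of 1034 (305 to 1374). The inhibitor Cdkn2d fell by 2.04 ± 0.33. Of 29 DNA replication genes 4 were higher and 4 lower, 13.8% each way and below the 19.9% and 20.2% of all genes, with Orc2 (1.37 ± 0.22) up and the licensing factor Cdt1 (-1.27 ± 0.20) and Rpa1 (-1.30 ± 0.19) down; another probe set of Cdt1 did not move (0.02). Without the 4 h array 8 were higher, without the 8 h or the 8 d h array or both arrays of suffix d 2, and 2 were lower without the 1 h array, the 8 d h array or both arrays of suffix d. Mcm2, of the replicative helicase, stood at 401, 394, 202 and 361 and then at 428, 666 and 596 (0.70 ± 0.27, adjusted p = 0.0639; without the 4 h array 0.88, 0.0386). Of 25 mitosis genes with a probe set 9 were bright enough to test. Of these 4 were lower (44.4% against 20.2% of all genes), and 2 were without the 1 h, 2 h or 8 d h array or both arrays of suffix d. A dim member could pass the filter on the arrays of 1 group alone, so the filter may partly set this share. Cenpa, the histone of centromeres, stood at 285, 410, 465 and 271 and then at 69.4, 69.0 and 57.3 (-1.97 ± 0.23).

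Among regulators of cell death, Bcl2l1, which encodes the survival factor Bcl-xL, stood at 70.9, 65.0, 44.6 and 218 and then at 1144, 1212 and 1346 (3.43 ± 0.36, adjusted p = 0.000775). The groups were far apart in this brightest of its 4 probe sets, but another did not move (0.00). The death agonist Bid rose from 109, 54.2, 83.8 and 145 to 559, 648 and 501 (2.25 ± 0.26), and the caspase-8 inhibitor Cflar by 1.77 ± 0.38. Bcl2 was not called (-0.50 ± 0.30, adjusted p = 0.208; without the 4 h array -0.81, 0.0452). Of genes that shorten the life of transcripts, 9 of 18 fell (50% against 20.2% of all genes) and none rose. Those that fell included Tob2 (-1.67 ± 0.22) and Zfp36l2 (-1.52 ± 0.29, with another probe set at -0.13). Without the 8 h array, the 8 d h array or both arrays of suffix d, 5 fell.

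Some of the largest changes lay outside the lists. Lad1, which encodes ladinin 1, had the largest rise of all named genes: it stood at 16.8, 15.7, 16.2 and 62.1 and then at 1225, 1845 and 1842 (4.85 ± 0.29, adjusted p = 0.000118). The first 3 values lay below the array medians, and the later ones were all above 1000 units. Pdgfb, a growth factor for stromal cells, stood at 12.8, 14.1, 44.1 and 134 and then at 781, 640 and 840 (3.45 ± 0.42), with a second probe set at 1.63. Among the falls, Vps37b, of the ESCRT sorting machinery, stood at 3401, 5347, 2468 and 1481 and then at 417, 127 and 212 (-3.48 ± 0.45). Frat2, a GSK3-binding protein (-3.09 ± 0.41), and Vim, the intermediate filament vimentin (-2.84 ± 0.42), fell too. Dtx1, a regulator of Notch signalling and of anergy, stood at 1617, 1016, 206 and 81.7 and then at 30.0, 24.2 and 34.5 (-2.92 ± 0.78, adjusted p = 0.0163), and missed the threshold without the 8 h (-2.86, 0.0608) or 8 d h array (-2.98, 0.0532).

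Some interferon-inducible genes rose in the control arm. Of 23 tested 6 were called higher and 1 lower (26.1% and 4.35% against 19.9% and 20.2%), with a median of 0.50. Gbp2, a guanylate-binding protein, stood at 533, 400, 564 and 627 and then at 6587, 2886 and 3105 (2.82 ± 0.29, adjusted p = 0.000775). Iigp1, an immunity-related GTPase, stood at 141, 119, 203 and 256 and then at 2204, 688 and 1668 (2.77 ± 0.39, adjusted p = 0.00131). Irf8, a factor of the same response, stood at 41.8, 41.5, 185 and 1381 and then at 4394, 1522 and 1707 (3.50 ± 0.92, adjusted p = 0.0145). All 3 were highest at 4 h and the groups did not overlap, though the 2 d h array came close to 8 h for Irf8. Socs3, a feedback inhibitor of STAT3 signalling, fell from 975, 1158, 651 and 544 to 483, 138 and 185 (-1.64 ± 0.40, adjusted p = 0.0104; without the 8 h array -1.31, 0.0511, and without the 8 d h array -1.49, 0.0509). Bhlhe40, which promotes GM-CSF production, stood at 131, 93.9, 120 and 243 and then at 723, 1022 and 869 (2.39 ± 0.28). It was among the 5 of 15 helper lineage factors called higher (33.3% against 19.9% of all genes). That count fell to between 1 and 3 without any 1 of the arrays other than 2 d h: 3 without 0.5 h or 1 h, 2 without 2, 4 or 8 d h and 1 without 8 h, and it was 2 without both arrays of suffix d.

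The same step of time was then read on the 7 arrays of the IL27 arm, which the control comparison had not used. There 2843 of 6616 genes were called (43%), 1632 higher (24.7%) and 1211 lower (18.3%). Of the 1321 genes called higher in control cells 1222 were also called higher with IL-27 (92.5% of the control list and 74.9% of the IL-27 list). Of the 1338 called lower 1044 were called lower (78% and 86.2%), and none was called in opposite directions. List counts were alike in some lists and far apart in others, and no difference between lists was tested. Of 54 ribosome biogenesis genes 49 were higher in each arm, and of 30 quiescence genes 23 were lower in control cells and 24 with IL-27. Oxidative phosphorylation genes were higher in 8 of 53 in control cells and in 25 with IL-27, proteasome genes in 23 and 31 of 33, and helper lineage factors in 5 and 2 of 15. No gene of 6846 was called for a difference of the step between the arms by limma (0%; 37 at an unadjusted p under 0.05; smallest adjusted p = 1). With time and suffix as a replicate block, added after the data were seen, 0 were called and 549 (8.02%) had an unadjusted p under 0.05. These tests do not show that the steps were alike.

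**Figure D4:**
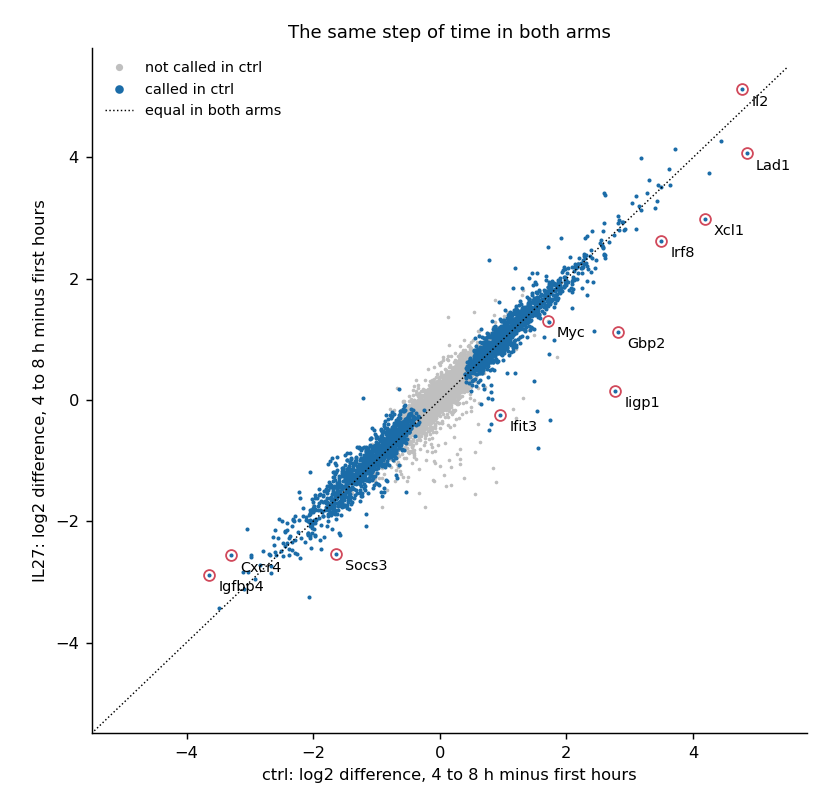
Log2 difference between the later and the first-hour arrays in the IL27 arm against the same difference in the ctrl arm, for genes tested in both; blue points were called in the ctrl arm, grey ones were not, the dotted line marks equal differences and red circles mark named genes. Points lie along the line, with Iigp1 (2.77 and 0.15), Gbp2 (2.82 and 1.13) and Ifit3 (0.96 and -0.25) below it.

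The 5 lowest differences of the step were those of the interferon-inducible genes Iigp1 (-2.62), Cxcl10 (-2.34), Ifit1 (-2.25), Rtp4 (-2.11) and Gbp7 (-2.07), and the highest was that of Il12rb1, a chain of the IL-12 receptor (1.53), named here after their values were seen. Iigp1 stood at 730, 1509, 3632 and 3195 in the first hours with IL-27 and at 2998, 1416 and 2211 later, so that its step was 0.15 ± 0.53 there and 2.77 ± 0.39 in control cells (difference of steps -2.62 ± 0.72, adjusted p = 1). On the HT_MG-430A arrays its level was already high at 1 h with IL-27, and in control cells only from 4 h. On the control arrays of a second type, described below, Iigp1 stood at 1373 at 0 h and 1087 at 4 h. Gbp2 stood at 677, 1537, 5495 and 6062 and then at 7613, 3582 and 5679 with IL-27, a step of 1.13 ± 0.71. Of the interferon list 1 of 24 genes was higher and 8 were lower over the step with IL-27. Il2 with IL-27 stood at 12.2, 23.9, 487 and 3303 and then at 8930, 8035 and 9788 (5.12 ± 1.34). Lad1 (4.07 ± 0.32) and Xcl1 (2.99 ± 0.28) rose by less than in control cells (differences of steps -0.78 ± 0.45 and -1.19 ± 0.57, adjusted p = 1 for both).

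**Figure D5:**
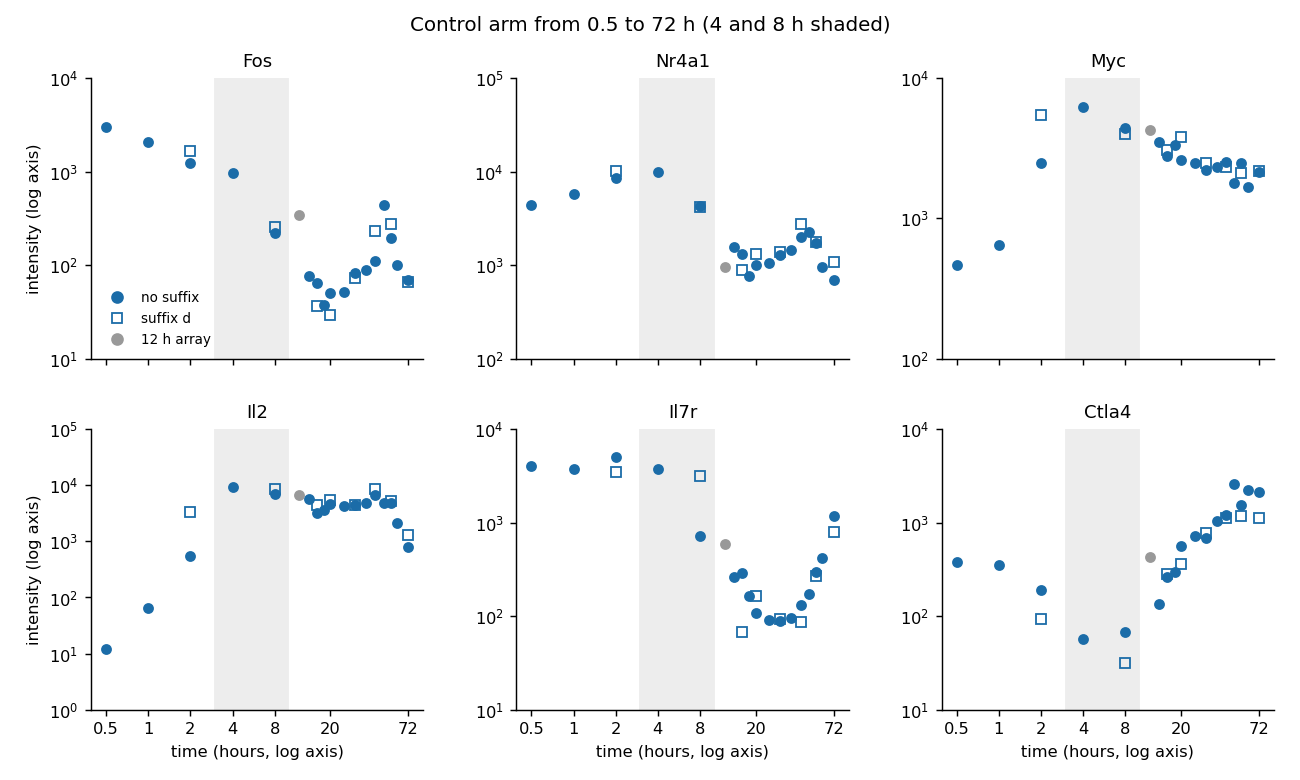
Intensity against time in hours, both on log axes, for 6 genes on all 26 HT_MG-430A control arrays; filled circles are arrays without and open squares arrays with the title suffix d, the grey circle is the 12 h array and shading marks 4 and 8 h. Fos, Nr4a1 and Il7r fall below their first-hour levels after 8 h, Il2 stays high until the last times, and Ctla4, lowest at 4 and 8 h, climbs to 2616.

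Levels on the other control arrays show which changes were passing, given with no test. On the 18 arrays from 14 to 72 h (the 12 h array is left out, since its highest correlation with another of these arrays was 0.8531 and that of every other at least 0.9504) Fosb stayed at 9.31 to 20.4 and Cxcr4 had a median of 25.4 (15.7 to 432). Il2 remained at a median of 4572 (794 to 8450) and Tnfrsf4 at 5146 (3581 to 6754). Ctla4, which fell over the step, then rose to between 134 and 2616 (median 904). Xcl1 returned to a median of 68.8 (26.9 to 1171). Top2a, of dividing cells, which was dim at 28 to 42.5 at 4 and 8 h, reached a median of 1816. Il7r, at 3143 or more on all of the 7 arrays but the one at 8 h, had a median of 164 (67.7 to 1173), and vimentin, down to 122 at 8 h, ranged up to 4596.

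A second array type, Mouse430A_2, holds a control array at 0 h and one at 4 h, without replicates and with its own intensity scale. Of the 1321 genes called higher 675 (51.1%) were 2-fold or more higher at 4 h than at 0 h there and 5 (0.379%) lower, against 15.9% and 14.2% of all 6634 genes. Of the 1338 called lower 562 (42%) were lower and 25 (1.87%) higher. Il2 stood at 31.9 at 0 h and 18519 at 4 h, Il2ra at 16.2 and 1466, and Igfbp4 at 8571 and 281. Fos stood at 5030 at 0 h and 1238 at 4 h and Klf2 at 5804 and 1065, so Fos was not low on the array labelled 0 h. Nr4a1, by contrast, stood at 991 and 14667 and Myc at 829 and 9146. Vps37b, in the first hours far above its later level, stood at 642 and 433 on these arrays, and Fosb at 50.7 and 39.6.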

How the data were processed

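The authors deposited 1 table per array type with an intensity on a linear scale for 22626 probe sets; MAS5 is the only tool named, per the submitters' processing notes, and its scaling and background settings are not named. Deposited intensities were used without further normalization. Probe sets were named from the platform annotation of both array types: 20173 had 1 gene, 942 several and 1511 none, and the last 2 kinds were left out, which gave 12291 genes. Each gene was read from the brightest of its probe sets. Genes were tested if they exceeded the median of the array on 3 or more of the 7 arrays (of the 14 in the test between arms). Tests ran on log2(intensity + 32) in limma 3.58.1, R 4.3.3 (group as the factor, eBayes with trend, Benjamini-Hochberg over all genes kept). Tested on simulated data of 6634 genes, the fit recovered 48% of changes of 1 on the log2 scale and 91% of changes of 2. Each size was set in 100 genes, and 10 unchanged genes were called. So few changed genes, against 40.1% called in the data, make the adjusted threshold stricter, and recovery in the data may differ. Levels on Mouse430A_2 were compared with 64 added. The text names the 12 largest differences each way among called genes with groups apart, up to 3 called members of each list with the smallest adjusted p, and a set of fixed genes; other genes named were chosen after their values were seen. Members, gene lists and tests were chosen with earlier results of these data known. Alternatives covered pseudocount, filter, normalization, probe sets, the suffix d, times and each array left out. Promoters came from RefSeq, matched by symbol. No paired analysis of the control comparison was made.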

Additional observations from a re-analysis of the deposited data

Results flagged for a closer look

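The results here were marked because 1 of the 4 first-hour arrays lay far from the other 3 (gap to the nearest over the whole range, above the 95% critical value of Dixon's test for 4 values). The first-hour group was checked in 148 named genes and 9 were marked (6.08%). Chance alone marks about 1 in 20 groups whose values are drawn alike. These arrays differ in time and many genes were named for their change, so that rate is no baseline here. In 7 genes the 2 d h array was the one apart, each time on the high side, towards the later group: Lad1 (0.966), Mybbp1a (0.952), Il3 (0.931), Hk2 (0.882), Kars (0.881), Polr1b (0.871) and Bcat1 (0.864). In Utp20 (0.912) and Mcm2 (0.844) it was the 2 h array, on the low side. Mcm2 was not called; the others were called with and without the array in question.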

How the results depend on the processing

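The count of genes called in control cells depended most on the arrays. It was 1490 to 2884 with 1 array left out in turn (main value 2659), 751 to 1452 for genes called higher and 739 to 1483 for genes called lower, lowest without the 8 h array in each case; the fits without an array have fewer samples. In the IL27 arm the ranges were 1557 to 3204 in all, 955 to 1688 higher and 602 to 1516 lower. Under the other settings the control count ran from 1916 (without suffix d) to 3445 (a mean for each time, with the spread from the duplicated times); without the filter it was 2386 of 12291 genes, and no gene called under both a setting and the main one changed direction. The test between arms gave 0 under every setting tried, including time and suffix as a replicate block. Among named genes, 1 changed direction: Dusp2 was -0.68 (adjusted p = 0.00264) with 8 h against 2 h only and 0.11 (adjusted p = 0.805) in the main comparison; the cause was not tested. No paired analysis was possible for the control comparison because its groups share no time that a replicate number could pair. With 7 arrays, changes of 2-fold were recovered in 48% of simulated cases. Few genes were changed there, so that share may not carry over to the data. A gene not called may still differ. Signal over background is not given in the deposited tables, and levels below the array medians are imprecise.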
